A study of Mus musculus with 4 samples.

Results

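Endoplasmic reticulum (ER) stress response genes were described across 4 RNA-seq libraries of mouse brain tissue. The 10 genes, Hspa5, Hsp90b1, Sdf2l1, Pdia4, Dnajb9, Manf, Herpud1, Xbp1, Atf4 and Ddit3, were taken by symbol from the 54532 genes listed, and all 10 had a value in each library. All mice were C57BL/6, and the design crossed age with the presence of a glioma. Young mice were 8 to 12 weeks old. Old mice are given as 8 to 90 weeks of age, a range that includes that of the young mice. Tumor-bearing mice had received 50000 cells of GL261, a transplantable mouse glioma line, into the brain, and their tissue outside the tumor was taken on day 21. Naive mice of either age served as controls, although their labels also name GL261 as a cell line. Each of the 4 combinations of age (young or old) and tumor (naive or tumor-bearing) had 1 library, and how many mice it came from is not stated in the labels.

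The unfolded protein response is the set of signals by which a cell adjusts to an excess of unfolded protein in the ER. The kinase and nuclease IRE1 (Ern1) splices the mRNA of Xbp1 into the form that encodes an active transcription factor, ATF6 is cut from the membrane to become one, and the kinase PERK (Eif2ak3) phosphorylates eIF2alpha, which slows most translation while favoring that of Atf4. Their targets include ER chaperones, enzymes of disulfide formation, components of ER-associated degradation (ERAD) and, after prolonged stress, the factor CHOP (Ddit3). Levels of mRNA per gene do not show the splicing of Xbp1, the cleavage of ATF6 or the translation of Atf4.

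The promoters of Hspa5, Hsp90b1 and Herpud1 are shown because they hold an ER stress element. They are the 250 bases before the transcription start in RefSeq (GRCm38.p6), read 5′ to 3′ on the strand of the gene, at chr2:34771840-34772089 (plus strand), chr10:86705445-86705694 (minus strand) and chr8:94386179-94386428 (plus strand). Capitals mark the elements found.
Hspa5: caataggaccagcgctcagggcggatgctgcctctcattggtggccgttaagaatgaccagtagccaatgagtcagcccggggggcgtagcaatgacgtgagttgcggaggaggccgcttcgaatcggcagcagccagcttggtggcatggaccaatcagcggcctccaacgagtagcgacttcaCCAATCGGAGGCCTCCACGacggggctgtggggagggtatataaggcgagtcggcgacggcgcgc
Hsp90b1: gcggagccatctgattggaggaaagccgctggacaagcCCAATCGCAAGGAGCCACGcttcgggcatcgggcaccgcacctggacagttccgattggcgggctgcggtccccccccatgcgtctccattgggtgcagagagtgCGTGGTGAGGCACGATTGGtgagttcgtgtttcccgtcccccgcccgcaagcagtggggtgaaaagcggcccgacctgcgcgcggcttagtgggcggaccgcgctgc
Herpud1: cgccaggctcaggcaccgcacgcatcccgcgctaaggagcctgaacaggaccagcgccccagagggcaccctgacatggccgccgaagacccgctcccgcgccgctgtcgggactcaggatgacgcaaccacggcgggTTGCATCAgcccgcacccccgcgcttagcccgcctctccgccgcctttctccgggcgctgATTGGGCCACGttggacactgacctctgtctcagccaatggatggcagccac
The ER stress element (ERSE), a site known for ATF6 together with NF-Y, was searched on both strands as CCAAT followed by CCACG with any 9 bases between them. It lay 65 to 47 bases before the start of Hspa5. In Hsp90b1 it lay 212 to 194 bases before the start and again, on the reverse strand, 107 to 89 bases before it. Of 32851 promoter windows of the same length, 37 (0.113%) held this element, against 2 of the 9 member genes with a window. The related ERSE-II, searched as ATTGG and CCACG with any 1 base between them, was found in 10 windows (0.0304%), of which that of Herpud1 was one, 52 to 42 bases before its start. The Herpud1 window also held, on the reverse strand 112 to 105 bases before the start, the composite element TGATGCAA known for ATF4, which 260 windows (0.791%) held. The XBP1 element TGACGTGG, present in 185 windows (0.563%), was in none of the 9. With at most 1 fixed letter of the ERSE changed, 432 windows (1.32%) had a match, and Pdia4 (108 to 90 bases before the start) and Ddit3 (91 to 73) joined Hspa5 and Hsp90b1. The elements are known sites of the ER stress response and the members are genes of that response, so these shares are no test of enrichment. Matches of letters describe these windows and do not show binding.

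**Figure D1:**
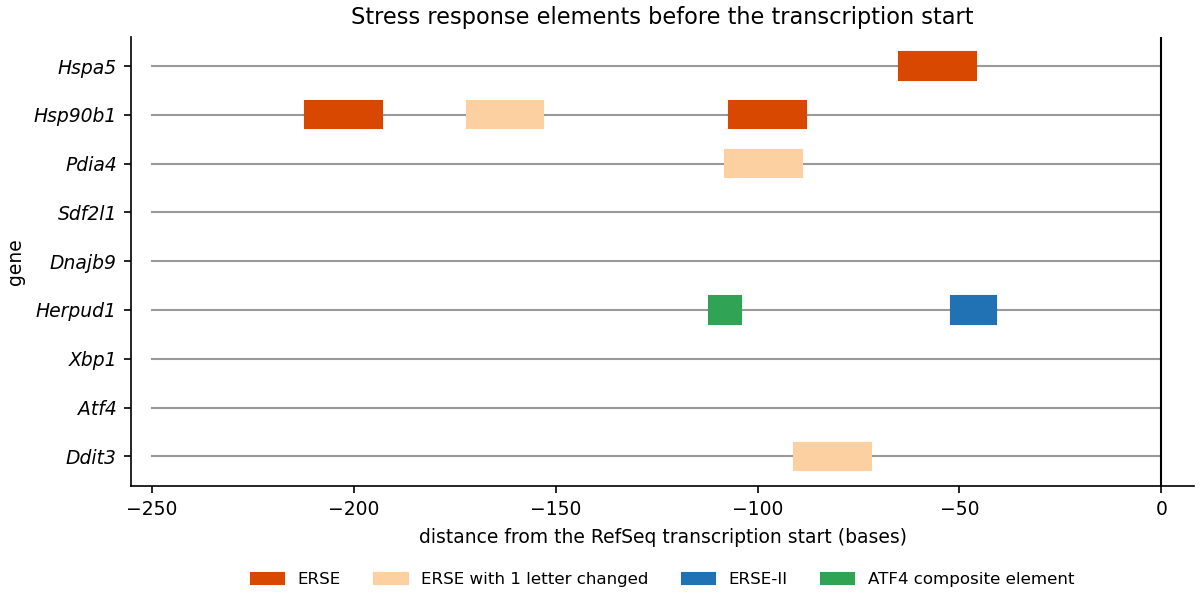
Elements found in the promoter windows of the member genes, with distance in bases before the RefSeq start on the horizontal axis and 1 line per gene. Hspa5 and Hsp90b1 hold an exact ERSE, and Herpud1 an ERSE-II and a composite element known for ATF4.

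The values were FPKM, fragments per kilobase of exon scaled by a depth divisor of each library, which allows levels to be compared between genes. The libraries held 19572251 to 23267926 fragments in genes, as recovered from the FPKM. The 95% intervals below are exact binomial intervals of the ratio of recovered reads. They include no error other than counting error, and even that is understated where several reads stem from 1 molecule, since no molecular identifiers were used. With 1 library per group there was no replicate check, so no difference was tested. The old tumor-bearing library stood apart. Its divisor was 1.19 times its fragments, against 0.797 to 0.914 in the others, and mitochondrially encoded genes took 2.12% of its fragments against 4.72% to 5.51%. Summed over 12 neuron markers its level was 394.8 FPKM, against 1418 to 2068 in the others, and over 10 proliferation markers 279.2 FPKM against 2.15 to 13.8. In bulk tissue, fewer cells of a type and less RNA per cell cannot be told apart.

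All 10 member genes were expressed in each library. From the lowest to the highest, the members ranged from 12.7 to 113.7 FPKM in young naive tissue, from 9.48 to 61.5 in young tumor-bearing tissue, from 6.81 to 53.5 in old naive tissue and from 11.1 to 187.2 in old tumor-bearing tissue. Recovered reads per member ran from 118 (Sdf2l1, old naive) to 18413 (Hspa5, old tumor-bearing). Together the 10 genes made up 0.134% of all FPKM in young naive, 0.0980% in young tumor-bearing, 0.0748% in old naive and 0.247% in old tumor-bearing tissue. Their summed level was thus highest in old tumor-bearing tissue (670.7 FPKM) and lowest in old naive tissue (274.6 FPKM).

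Hspa5 had the highest level of the 10 genes in each library. Hspa5 (BiP, the Hsp70 chaperone that binds unfolded proteins and holds the stress sensors inactive; ENSMUSG00000026864, protein-coding, mm10 chromosome 2, 34771970 to 34777547) was at 113.7 FPKM in young naive, 61.5 in young tumor-bearing, 53.5 in old naive and 187.2 in old tumor-bearing tissue. Among protein-coding genes at 1 FPKM or more it ranked 292nd, 630th, 980th and 118th in the same order. Hsp90b1 (GRP94, the Hsp90 chaperone of the ER, chromosome 10, 86690209 to 86705509) was at 82.3, 60.9, 47.6 and 179.8 FPKM. Both were lowest in old naive and highest in old tumor-bearing tissue. Of the 4032 exon bases of Hsp90b1, 415 (10.3%) are shared with the antisense gene 1810014B01Rik. The labels describe a strand-specific and an unstranded library without saying which was made, so reads of overlapping antisense genes could not be told apart.

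Pdia4 (ERp72, a protein disulfide isomerase, chromosome 6, 47796141 to 47813430) was at 27.2 FPKM in young naive, 18.5 in young tumor-bearing, 16.5 in old naive and 87.0 in old tumor-bearing tissue. Its rank was 1939th in young naive and 290th in old tumor-bearing tissue. Sdf2l1 (an ER protein that works with the co-chaperones of BiP, chromosome 16, 17130138 to 17132383) was at 14.6, 9.48, 6.81 and 25.9 FPKM. Manf (a secreted neurotrophic factor held in the ER through BiP, chromosome 9, 106838312 to 106891979) was at 14.5, 10.5, 10.1 and 31.6 FPKM. These genes had the same order of libraries as Hspa5, with the old tumor-bearing library highest and the old naive library lowest. Exons of Manf share 146 bases (4.14%) with the antisense gene Dcaf1.

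Other member genes had a different order. Dnajb9 (ERdj4, a co-chaperone of BiP that restrains IRE1, chromosome 12, 44205559 to 44210326) was at 21.6 FPKM in young naive, 17.6 in young tumor-bearing, 16.1 in old naive and 11.1 in old tumor-bearing tissue. Herpud1 (a membrane component of the ERAD ubiquitin ligase complex, chromosome 8, 94386438 to 94395377) was at 34.2, 30.6, 30.3 and 19.5 FPKM. For both, the old tumor-bearing library was the lowest of the 4 on the deposited scale, opposite to the chaperones above, although for Dnajb9 the order of the old libraries depended on the scaling.

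Of the transcription factors, Xbp1 (chromosome 11, 5520659 to 5525893) was at 40.8 FPKM in young naive, 26 in young tumor-bearing, 31.3 in old naive and 24.9 in old tumor-bearing tissue. Atf4 (chromosome 15, 80255184 to 80257541) was at 58.5, 48.1, 48.8 and 84.1 FPKM. Ddit3 (chromosome 10, 127290774 to 127296288) was at 12.7, 12.9, 13.6 and 19.6 FPKM. On the deposited scale Xbp1 was lower in both tumor-bearing libraries than in the naive library of the same age, which under other scalings held in young mice and not always in old mice, while Ddit3 hardly differed among 3 libraries and was highest in the old tumor-bearing one. A second identifier with the symbol Ddit3, of 105 bases within the exons of the first, was listed at 0 in all 4 libraries, and 68 bases of Ddit3 exons are shared with the antisense gene Mars, which was at 18.9 to 24.0 FPKM.

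**Figure D2:**
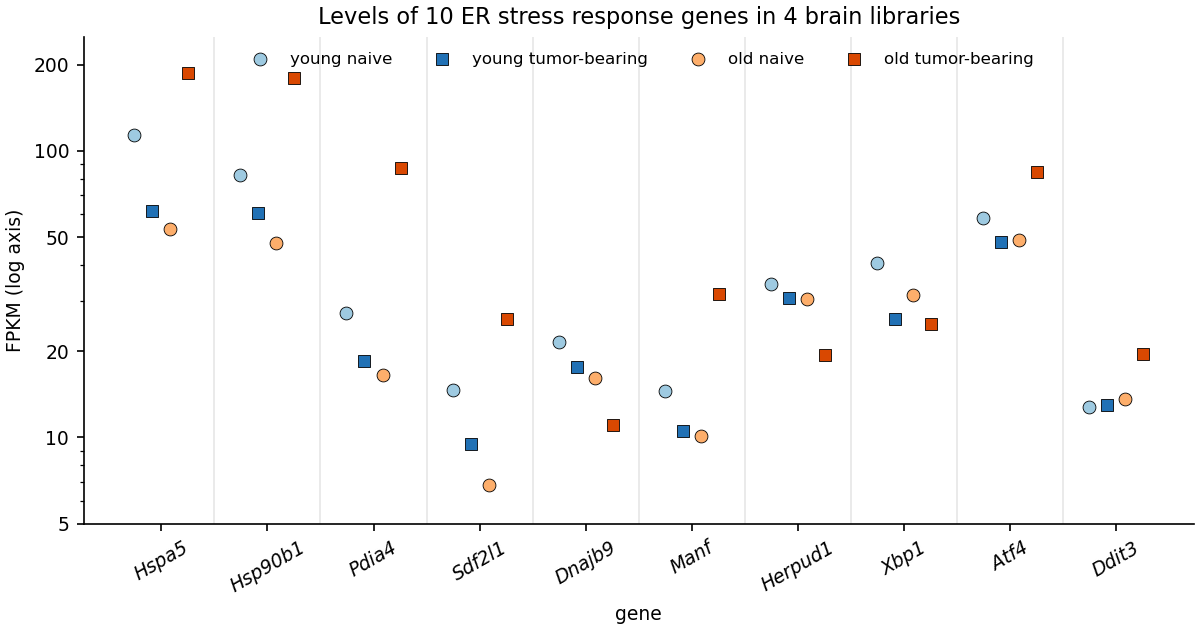
Level of each of the 10 genes in FPKM (log axis) in the 4 libraries, 1 point per library and no error bars, since each group had 1 library. Hspa5, Hsp90b1, Pdia4, Sdf2l1 and Manf are lowest in old naive and highest in old tumor-bearing tissue, whereas Dnajb9 and Herpud1 are lowest in old tumor-bearing tissue on this deposited scale, an order that for Dnajb9 is not kept under every scaling.

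The first comparison set young tumor-bearing tissue beside young naive tissue. Of the 10 genes 9 were lower in young tumor-bearing than in young naive tissue, with a median log2 ratio of −0.45 against −0.01 over all 15500 genes measured (at least 1 FPKM in 1 of the libraries compared, log2 of FPKM + 0.1). None was at least 2-fold apart in either direction, where 5.05% of all genes were higher and 1.85% lower by that much. Hspa5 was 1.85-fold lower (95% counting interval 1.79 to 1.91), and 0.489% of 12875 protein-coding genes had a lower log2 ratio. Xbp1 was 1.57-fold lower (1.48 to 1.67), and Sdf2l1 was 1.54-fold lower (1.29 to 1.84). Pdia4, Manf and Hsp90b1 came next.

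Pdia4 was 1.47-fold lower (1.35 to 1.60), Manf 1.38-fold lower (1.25 to 1.52) and Hsp90b1 1.35-fold lower (1.30 to 1.40). Dnajb9 was 1.23-fold lower (1.12 to 1.34), Atf4 1.22-fold lower (1.15 to 1.29) and Herpud1 1.12-fold lower (1.04 to 1.2). The ratio of Ddit3, 1.02-fold higher, had a counting interval that included no difference (0.888 to 1.16). The sign of the 9 lower genes was the same under all 5 ways of scaling the libraries, and that of Ddit3 was not (log2 ratio from −0.02 to 0.08).

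The 5 lists of sensors, chaperones, ERAD, secretory pathway and ATF4 and CHOP targets had medians nearer to 0 than the members in young tumor-bearing tissue, with single genes further from it. Of 21 further ER chaperones and folding enzymes measured, none was at least 2-fold apart, and 17 were lower (median log2 ratio −0.25). The calcium-binding chaperone Calr was 1.68-fold lower (1.62 to 1.73), at 173.5 FPKM in naive and 103.5 in tumor-bearing tissue, while the disulfide isomerase Pdia5 was 1.94-fold higher (1.34 to 2.82), from 0.830 to 1.61 FPKM. None of 9 stress sensors was 2-fold apart (median 0.02), with Ern1 1.64-fold higher (1.44 to 1.88) and Atf6 1.22-fold lower (1.15 to 1.30). The same held for 17 ERAD genes (median −0.16), where the ubiquitin-conjugating enzyme Ube2j1 was 1.34-fold lower (1.27 to 1.41) and Derl3, at 41 and 28 reads, was 1.43-fold lower with an interval that included no difference (0.865 to 2.40). It held too for 26 genes of translocation and the secretory pathway (median −0.08), where the ribosome-binding protein Rrbp1 was 1.41-fold higher (1.30 to 1.53) and the COPII coat gene Sec24d 1.37-fold higher (1.18 to 1.59).

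By at least 2-fold, 5.05% of all genes were higher and 1.85% lower in this comparison. Among 23 measured targets of ATF4 and CHOP, 2 were at least 2-fold higher and none lower (median −0.00). These were Trib3, a pseudokinase induced by CHOP, at 33 reads in naive and 96 in tumor-bearing tissue (2.97-fold, 1.98 to 4.56), and the stress factor Atf3, at 16 and 50 reads (3.19-fold, 1.79 to 6.01). Of the 3 eIF2alpha kinases other than PERK, Eif2ak2 (PKR, activated by double-stranded RNA) was 1.87-fold higher (1.52 to 2.29) and Eif2ak4 (GCN2, activated by amino acid shortage) 1.22-fold higher (1.09 to 1.35). Chaperones outside the ER were lower as well: of 17 cytosolic heat shock genes 16 were lower (median −0.46), with Hspb1 3.10-fold lower (2.58 to 3.73) and Hsph1 1.73-fold lower (1.67 to 1.80). The 7 mitochondrial chaperones and proteases had a median of −0.19, with Hspe1 1.22-fold lower (1.12 to 1.33) and the protease Clpp 1.2-fold lower (1.08 to 1.33). The lower levels were therefore seen in cytosolic as well as ER chaperones.

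The second comparison set old tumor-bearing tissue beside old naive tissue. Of the 10 genes 5 were at least 2-fold higher in old tumor-bearing than in old naive tissue and none was 2-fold lower, with a median log2 ratio of 1.21 against −0.31 over all 16488 genes measured. By the same measure 20.6% of all genes were higher and 31.4% lower. Pdia4 was 5.28-fold higher (95% counting interval 4.85 to 5.75), Sdf2l1 3.80-fold (3.12 to 4.67) and Hsp90b1 3.77-fold (3.63 to 3.92). Hspa5 was 3.50-fold higher (3.38 to 3.63) and Manf 3.12-fold (2.84 to 3.42). All 5 encode proteins of the ER lumen, and Pdia4 exceeded the log2 ratio of 91.7% of 13582 protein-coding genes.

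The stress transcription factors differed less. Atf4 was 1.72-fold higher (1.63 to 1.82) and Ddit3 1.44-fold higher (1.27 to 1.63), while Xbp1 was 1.26-fold lower (1.17 to 1.34). Herpud1 was 1.56-fold lower (1.43 to 1.70) and Dnajb9 1.45-fold lower (1.30 to 1.62). The members thus spread in both directions: Pdia4 and Herpud1, the highest and the lowest, were 3.03 apart on the log2 scale, an 8.16-fold difference in ratio. A change of library scaling shifts all genes nearly alike, so this spread does not depend on it, although the levels do.

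Scaling mattered more in old than in young mice. In the old tumor comparison 4 other scalings moved the log2 ratio of a gene up by a median of 0.29 to 0.56. The median over all genes, −0.31 on the deposited scale, was 0.12 with median-of-ratios scaling and 0.17 with equal totals. It was 0.33 by fragments in genes and 0.03 with equal totals after removal of mitochondrially encoded genes and the 50 highest genes. The numbers of genes at least 2-fold higher and lower were 3395 and 5171 on the deposited scale. In the same order of scalings they became 4639 and 3847, 4725 and 3605, 5345 and 3203, and 4298 and 4044. Over the 5 scalings the log2 ratio was 2.39 to 2.97 for Pdia4, 1.91 to 2.49 for Hsp90b1, 1.91 to 2.48 for Sdf2l1, 1.81 to 2.38 for Hspa5 and 1.63 to 2.20 for Manf. Atf4 (0.79 to 1.36) and Ddit3 (0.52 to 1.09) were likewise above 0 under all 5, and Herpud1 below 0 (−0.64 to −0.06). The direction of Dnajb9 (−0.53 to 0.04) and Xbp1 (−0.33 to 0.25) depended on the scaling.

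**Figure D3:**
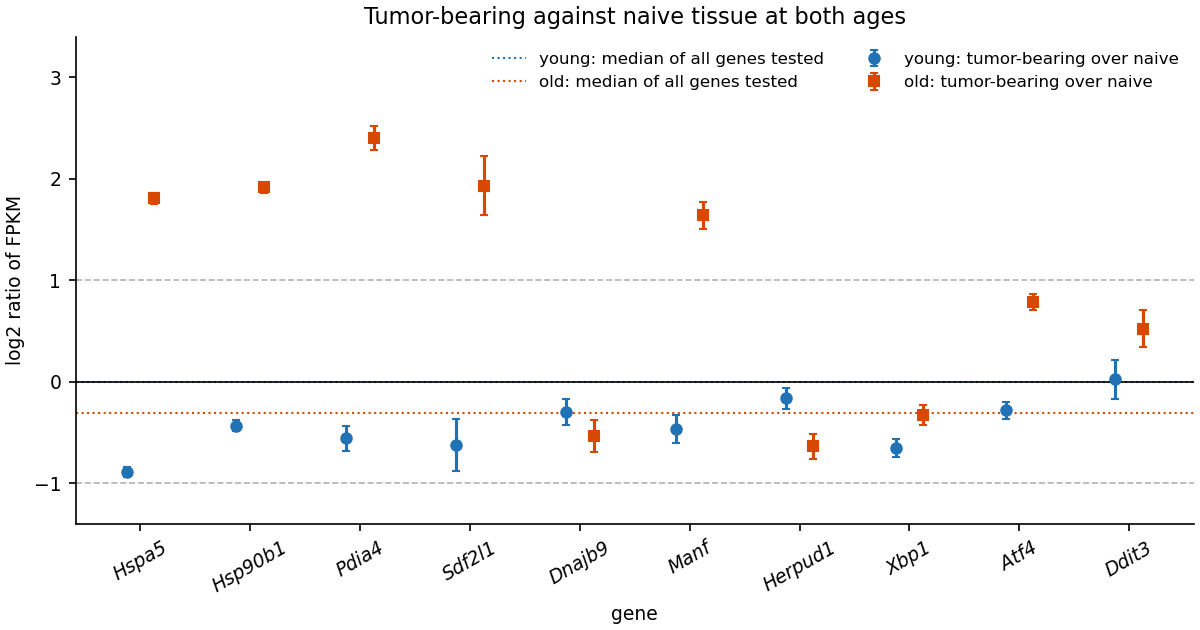
Tumor-bearing over naive ratio of each of the 10 genes (log2 of the FPKM ratio, 1 point per pair of libraries) in young and in old mice, with bars for 95% counting intervals, dashed lines at 2-fold and dotted lines at the median of all genes. In young mice the points run from 1.85-fold lower (Hspa5) to 1.02-fold higher (Ddit3), and in old mice from 1.56-fold lower (Herpud1) to 5.28-fold higher (Pdia4).

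**Figure D4:**
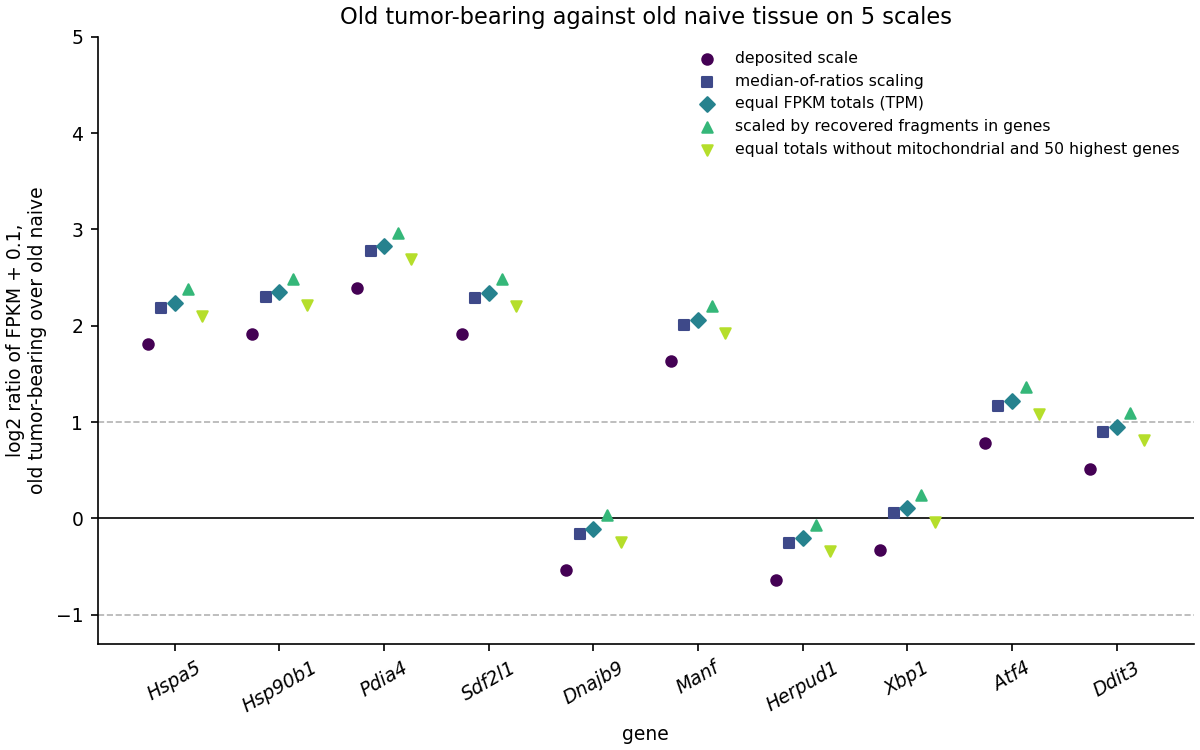
Log2 ratio (FPKM + 0.1) of old tumor-bearing over old naive tissue for each of the 10 genes under the deposited scale and 4 other scalings, with dashed lines at 2-fold. Pdia4, Hsp90b1, Sdf2l1, Hspa5 and Manf stay above 1 under each of the 5, and Dnajb9 and Xbp1 lie on either side of 0.

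Further ER chaperones and folding enzymes were also higher in old tumor-bearing than in old naive tissue. Of 22 measured, 8 were at least 2-fold higher and none lower (median log2 ratio 0.81, against −0.31 over all genes). Over all genes 20.6% were higher and 31.4% lower by that much. The disulfide isomerase P4hb was 5.39-fold higher (5.14 to 5.66), from 42.3 to 228.0 FPKM. The prolyl isomerase Fkbp11 was 4.84-fold higher (3.02 to 8.17), from 0.472 to 2.29 FPKM, and Creld2, a secreted ER stress protein, 3.73-fold higher (3.24 to 4.30), from 11 to 41.2 FPKM. Of 26 genes of translocation and the secretory pathway 12 were higher and 1 lower (median 0.95). The KDEL receptors, which return ER residents such as BiP from the Golgi, were among them: Kdelr2 was 4.75-fold higher (4.26 to 5.31), and Kdelr3 had 2 reads in old naive and 214 in old tumor-bearing tissue, a ratio of 72.0 (19.7 to 598). The translocon subunit Sec61b was 5.0-fold higher (4.24 to 5.92), from 8.25 to 41.2 FPKM.

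ERAD genes were less one-sided: 2 of 16 were at least 2-fold higher and none lower, and the median was −0.11. Over all genes 20.6% were higher and 31.4% lower, so the share of ERAD genes higher was not above that of all genes. The glycoprotein sorting factor Edem1 was 5.35-fold higher (4.88 to 5.87) and the retrotranslocation channel gene Derl1 2.07-fold higher (1.94 to 2.22), while Sel1l, a partner of Herpud1 in the ERAD ligase complex, was 1.87-fold lower (1.79 to 1.97). Of the 9 sensors 2 were higher and none lower (median 0.27), and the share higher was close to that of all genes. Ern1 (IRE1) was 7.01-fold higher (6.23 to 7.91), from 2.39 to 16.7 FPKM, and Creb3l2, a membrane-bound factor of the ATF6 kind, 4.30-fold higher (3.83 to 4.84). Atf6 itself was 1.95-fold lower (1.82 to 2.09). The mRNAs of the sensors thus differed in opposite directions.

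Targets of ATF4 and CHOP were spread widely, with 9 of 24 at least 2-fold higher and 2 lower (median 0.46). Over all genes 20.6% were higher and 31.4% lower by that much. Trib3 was 47.7-fold higher (33.5 to 70.3), from 0.932 to 44.4 FPKM. Atf3, at 8 reads in old naive and 247 in old tumor-bearing tissue, was 20.8-fold higher (10.4 to 48.7), and Cebpb, a C/EBP factor that can pair with CHOP, 13.4-fold higher (11.1 to 16.3), from 4.84 to 65.0 FPKM. Of the other eIF2alpha kinases, Eif2ak2 was 12.3-fold higher (10.1 to 15.1), Eif2ak1 1.56-fold lower (1.44 to 1.68) and Eif2ak4 1.11-fold higher with an interval that included no difference (0.987 to 1.24). Eif2ak2 is also a known interferon-inducible gene.

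The comparator lists had medians of opposite sign on the deposited scale. Of 17 cytosolic heat shock chaperones 1 was higher and 4 lower (median −0.45), with Hspa1b 4.73-fold lower (3.61 to 6.25), Hspa1a 3.77-fold lower (2.76 to 5.20) and Dnajb4 3.25-fold lower (2.92 to 3.62). Hspa1a and Hspa1b are near-identical copies whose reads may have been split, so their separate values are uncertain. Neither the share of cytosolic chaperones higher nor the share lower exceeded that of all genes (20.6% and 31.4%). The median of all genes was −0.31, and the sign of the cytosolic median depended on the scaling. Of 7 mitochondrial chaperones and proteases 3 were higher and none lower (median 0.26): Hspd1 was 3.04-fold higher (2.90 to 3.18), Hspa9 2.80-fold (2.70 to 2.91) and Hspe1 2.65-fold (2.44 to 2.87).

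**Figure D5:**
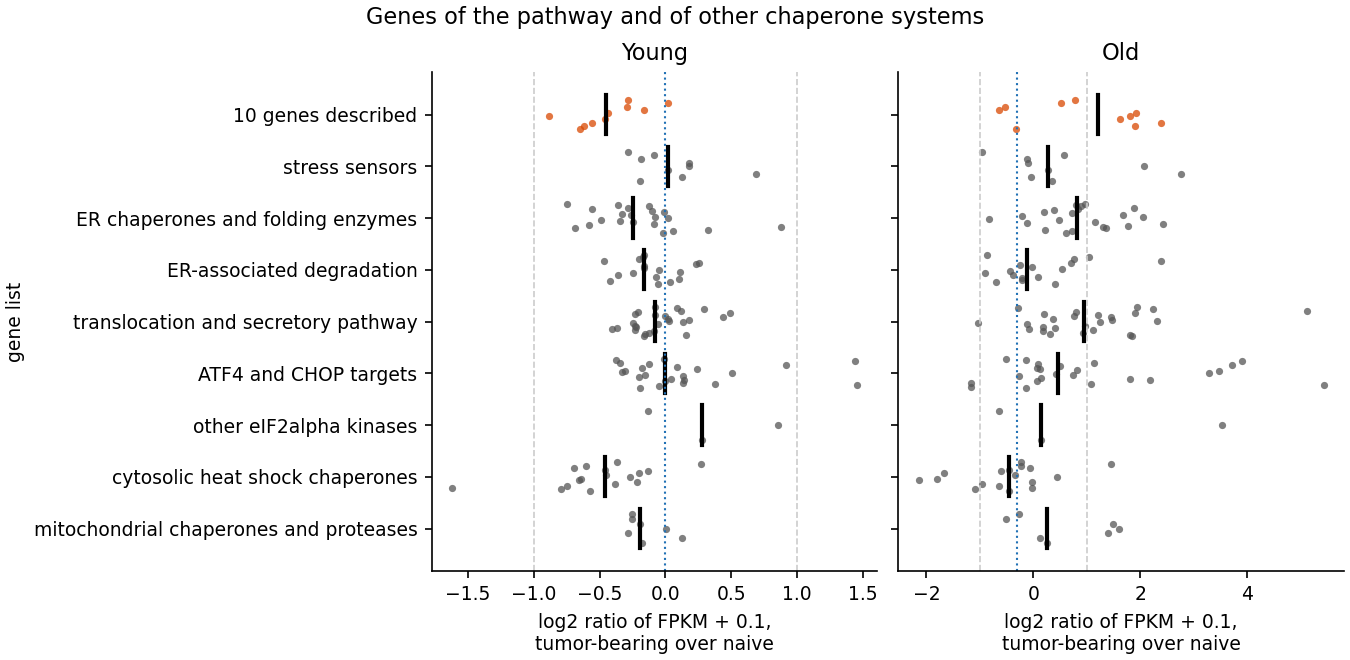
Log2 ratio of tumor-bearing over naive tissue (FPKM + 0.1) for the genes of each list, 1 point per measured gene with the median as a bar, in young and in old mice, with dashed lines at 2-fold and a dotted line at the median of all genes. In old mice the medians on the deposited scale are 1.21 for the members, 0.81 for other ER chaperones and 0.95 for the secretory pathway. For cytosolic chaperones the median is −0.45, against −0.31 over all genes, and its sign depends on the scaling.

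Markers of several cell types differed between the same libraries. From young naive, young tumor-bearing and old naive to old tumor-bearing tissue, summed levels were 824.3, 792.6, 731.2 and 214.0 FPKM for 9 astrocyte markers and 1291, 1204, 911.9 and 624.0 FPKM for 9 oligodendrocyte markers. They were 86.6, 101.5, 107.6 and 110.3 FPKM for 8 microglia markers and 9.01, 33.8, 15.3 and 273.3 FPKM for 10 monocyte and macrophage markers. Neuron and astrocyte markers were lower in old tumor-bearing than in old naive tissue for 11 of 12 and 7 of 9 genes by at least 2-fold. Of 7 monocyte and macrophage markers measured 6 were at least 2-fold higher and none lower, while of 8 microglia markers none was higher and 1 was lower (median log2 ratio −0.44).

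The 10 lymphocyte markers (T and NK cells) summed to 1.22, 5.48, 1.18 and 52.1 FPKM, with 6, 0, 3 and 0 of them at 0 reads. For 10 markers of B cells and of plasma cells, which secrete antibody, the sums were 14.6, 33.5, 25.8 and 90.1 FPKM. Of the 6 that were measured in the tumor comparison of old mice, 5 were at least 2-fold higher and none lower (median log2 ratio 4.01). Mzb1, Pou2af1 and Tnfrsf17 were each at 0 in at least 1 library, and none of the 10 was at 0 in a tumor-bearing one. The 10 proliferation markers, at 2.15 FPKM in old naive and 279.2 in old tumor-bearing tissue, were at 3.69 and 13.8 FPKM in the young libraries. Endothelial markers summed to 94.1, 81.3, 92.2 and 104.1 FPKM and those of pericytes and fibroblasts to 41.5, 46.5, 37.2 and 25.2 FPKM. In the old tumor comparison most of these markers ran against their sums. Of 8 endothelial markers 7 were lower (median log2 ratio −0.51), with 3 at least 2-fold lower and 1 at least 2-fold higher. Of 7 pericyte and fibroblast markers 5 were higher (median 0.48), with 2 at least 2-fold higher and 2 lower. Over all genes 20.6% were higher and 31.4% lower by that much. The part of these differences in the levels of the ER stress genes was not tested.

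Libraries of old and young mice were compared without and with a tumor. These comparisons share libraries with those above and are not independent of them. In naive tissue 2 of the 10 genes were at least 2-fold lower in old than in young mice and none higher, with a median of −0.47 against 0.06 over all 15419 genes. Of all genes 4.93% were lower and 6.71% higher. Sdf2l1 was 2.15-fold lower (1.73 to 2.67) and Hspa5 2.13-fold lower (2.05 to 2.21). Hsp90b1 was 1.73-fold lower (1.65 to 1.80), Pdia4 1.65-fold (1.5 to 1.82) and Manf 1.43-fold (1.29 to 1.59).

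The remaining members stayed nearer to parity in naive tissue. Dnajb9 was 1.34-fold lower in old mice (1.22 to 1.48), Xbp1 1.30-fold (1.22 to 1.39), Atf4 1.2-fold (1.13 to 1.27) and Herpud1 1.13-fold (1.05 to 1.22). The interval of Ddit3, 1.07-fold higher, included no difference (0.929 to 1.23). Under all 5 scalings the 9 lower genes were below 0 on the log2 scale. With equal totals the counts over all genes turned from 1035 higher and 760 lower to 617 and 1020, with fragments in genes to 701 and 852, and with equal totals of the reduced gene set to 762 and 865, while with median-of-ratios scaling they were 910 and 753. Of 21 other ER chaperones 1 was at least 2-fold higher and none lower (median −0.34). Choroid plexus markers differed between the same libraries, at a summed 490.5 FPKM in young naive and 49.8 in old naive tissue, against 489.8 and 523.2 in the young and old tumor-bearing libraries, and their part in the result was not tested.

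In tumor-bearing tissue Pdia4, Hspa5, Manf, Hsp90b1 and Sdf2l1 were higher in old than in young mice, the opposite direction to naive tissue, whereas Dnajb9 and Herpud1 were lower in old mice in both. Of the 10 genes 5 were at least 2-fold higher in old than in young mice and none lower, with a median of 1.12 against −0.28 over all 16562 genes, of which 19.0% were higher and 29.8% lower. Pdia4 was 4.70-fold higher (4.38 to 5.06), Hspa5 3.05-fold (2.95 to 3.14), Manf 3.01-fold (2.77 to 3.27), Hsp90b1 2.95-fold (2.86 to 3.05) and Sdf2l1 2.73-fold (2.34 to 3.21). Atf4 was 1.75-fold higher (1.66 to 1.84) and Ddit3 1.51-fold higher (1.34 to 1.70). On the other side stood Dnajb9, 1.59-fold lower (1.44 to 1.76), and Herpud1, 1.57-fold lower (1.45 to 1.71), both below 0 under all 5 scalings. Xbp1 was 1.04-fold lower with an interval that included no difference (0.975 to 1.11). The genes higher and lower by 2-fold, 3155 and 4941 on the deposited scale, became 4516 and 3379 with median-of-ratios scaling and 4507 and 3494 by fragments in genes, but stayed mostly lower with equal totals (3684 and 4431) and with equal totals of the reduced gene set (3555 and 4541). Other ER chaperones were higher in 10 of 22 cases and lower in none (median 0.80).

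The difference between the tumor ratios of old and young mice combined all 4 libraries. It was at least 1 on the log2 scale for 6 of the 10 genes and −1 or less for none, with a median of 1.58 against −0.32 over all 17441 genes, of which 19.3% were higher and 32.0% lower by that much. It was 2.95 for Pdia4 (counting interval 2.78 to 3.12), 2.69 for Hspa5 (2.62 to 2.76) and 2.53 for Sdf2l1 (2.15 to 2.91). It was 2.35 for Hsp90b1 (2.27 to 2.42), 2.09 for Manf (1.90 to 2.28) and 1.07 for Atf4 (0.95 to 1.18). For these 6 genes the ratio was below 1 in young and above 1 in old mice. The difference was 0.50 for Ddit3 and 0.32 for Xbp1. It was −0.24 for Dnajb9 and −0.48 for Herpud1, whose sign depended on the scaling. Over all genes the counts of 3372 higher and 5583 lower became 4834 and 4096 with median-of-ratios scaling, 4608 and 4254 with equal totals and 5203 and 3782 by fragments in genes, while 4144 and 4744 with equal totals of the reduced gene set kept the larger number lower. These intervals use a normal approximation to the counting error, and the difference itself could not be tested.

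The members fell into patterns over the 4 libraries. Likeness was measured as the Euclidean distance between log2 levels centred on their mean, so that 0 means the same pattern. Among the member pairs, Dnajb9 and Herpud1 were nearest (0.18), followed by Hspa5 and Sdf2l1 (0.22) and by Hsp90b1 and Manf (0.25). Candidates were 9232 protein-coding genes with at least 5 FPKM in 1 library and 1 FPKM in all, with Gm, Rik and like provisional names left out. Of these, the nearest to Hspa5 were Sdf2l1, the disulfide isomerases Pdia3 (0.23) and Pdia6 (0.34), Hsp90b1 (0.35) and Nutf2-ps1 (0.41). Manf came sixth and Pdia4 stood at place 147, while Herpud1 was at place 5146.

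Xbp1 and Ddit3 had neighbors from outside the pathway. Nearest to Xbp1 were Snx3 (0.14), G3bp2 (0.15), Srek1ip1 (0.16), Rabif (0.17) and Arhgef19 (0.18). Snx3, a sorting nexin, was at 96.4 FPKM in young naive, 70.1 in young tumor-bearing, 80.7 in old naive and 65.0 in old tumor-bearing tissue. Nearest to Ddit3 were Pin4 (0.03), Dhx8 (0.04), Map3k3 (0.05), Dnajc9 (0.06) and Mecr (0.07). With 4 libraries many genes share a pattern, and these distances carry no test.

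The promoter element was set beside the levels for the 28 members and other ER chaperones with a window. The 8 genes with an exact ERSE (Hspa5, Hsp90b1, Calr, Canx, Dnajc3, Pdia6, Ero1lb and Creld2) were all lower in young tumor-bearing than in young naive tissue, with a median log2 ratio of −0.40, and 16 of the 20 without it were lower, with a median of −0.14. In old mice 4 of the 8 and 7 of the 20 were at least 2-fold higher, with medians of 1.17 and 0.70. Over all genes 20.6% were higher by that much, with a median of −0.31. Pdia4 and P4hb, the most different of these genes in old mice, were among the 20 without an exact ERSE. The genes with and without the element overlapped over most of their range in old mice, from −0.21 to 1.91 and from −0.82 to 2.43.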

How the data were processed

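Poly-A RNA of mouse brain tissue was sequenced as paired-end Illumina libraries, 1 for each of 4 groups taken from the labels. The authors deposited FPKM per Ensembl gene, 1 column per library, per the file headers. The submitters' processing notes name HISAT2 and mm10. How reads were counted, with which annotation and filters, and whether mice were pooled is not given in the sources used here. GENCODE M21 named 54495 of 54532 identifiers and gave exon lengths. FPKM times exon length came in whole steps of 1 read for 31928 of 32846 genes above 0 (97.2%, within 0.03 reads or 2e-05 of the value), which gave reads and each library's depth divisor. All 10 members came out whole. The limit set by 0 reads (3 reads) was, at 1 kb, 0.147 and 0.150 FPKM in the naive and tumor-bearing libraries of young mice and 0.192 and 0.129 FPKM in those of old mice.

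Groups of 1 library allow no test and no p-value, so none was run. A gene counted as measured once 1 of the compared libraries reached 1 FPKM, and all 10 members passed in all 4 libraries. Log2 ratios were of FPKM + 0.1, so low genes appear less different than they are, and folds were ratios of FPKM. A call was a log2 ratio of at least 1 either way. The recovery and the calls were tested on simulated data. The members and lists were chosen with earlier results of these data known. Named were all members, and from each list the 3 genes with the largest absolute log2 ratio in the old and the 2 in the young tumor comparison. The 5 protein-coding genes nearest in pattern to Hspa5, Xbp1 and Ddit3 were named too, with Gm, Rik and like provisional names left out. Alternatives were pseudocounts of 1 and 0.01, a floor of 5 FPKM, no floor, protein-coding genes alone and 4 other scalings. Python 3.11.15, numpy 2.4.6, pandas 2.3.3, scipy 1.17.1 and matplotlib 3.10.9 were used. Of the B and plasma cell marker list, 1 gene is not reported here and was left out of its sums and counts.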

Additional observations from a re-analysis of the deposited data

Results flagged for a closer look

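For 6 genes the tumor-bearing library was lower than the naive one in young mice and higher in old mice. The old minus young log2 ratio was 2.95 for Pdia4, 2.69 for Hspa5, 2.53 for Sdf2l1, 2.35 for Hsp90b1, 2.09 for Manf and 1.07 for Atf4. Each gene kept both directions under all 5 scalings. With 1 library per group the difference between ages was not tested. This difference combines all 4 libraries, and the lower ratios in young mice rest on the young pair. Cytosolic heat shock chaperones summed to 1980 FPKM in young naive tissue, against 1400 to 1499 FPKM in the others. The old tumor-bearing library also differed from the others in neuron, monocyte and macrophage, and proliferation markers. In the old naive library Pdia4, Hspa5, Sdf2l1, Hsp90b1 and Manf were lowest. Choroid plexus markers were lowest in the old naive library too, at a summed 49.8 FPKM against 489.8 to 523.2 in the others, and in the old minus young difference 7 of 9 of them were at least 1 higher on the log2 scale (median 2.73). The part of any single library in the difference was not tested.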

How the results depend on the processing

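No member count or median changed direction under any alternative. Of such values 122 were counted as unchanged and 13 as moved. The member median of the tumor comparison in old mice, 1.21, was 1.59 with median-of-ratios scaling, 1.64 with equal totals, 1.78 by fragments in genes and 1.5 with equal totals of the reduced gene set. In old against young tumor-bearing tissue, 1.12 became 1.52, 1.27 and 1.5 with the first 3 of these, and the age by tumor difference, 1.58, became 2.0, 1.96, 2.10 and 1.82 with all 4. In old against young naive tissue the median, −0.47, was −0.69 with equal totals, and the number at least 2-fold lower was 1 with a pseudocount of 1. Calls of single members that were within 2-fold on the deposited scale also changed. In the old tumor comparison Atf4 was at least 2-fold higher under 4 of the 5 scalings and Ddit3 under 1. In old against young tumor-bearing tissue Atf4 was so under 2. In old against young naive tissue Hsp90b1 was at least 2-fold lower under 1. The age by tumor difference of Ddit3 reached 1 on the log2 scale under 1. These scalings shift all genes by construction. Pseudocounts, floors and the protein-coding restriction left all 50 member ratios within counting error. No paired analysis was possible because each group had 1 library, and for the same reason no replicate could be left out. Depth limited Sdf2l1 most, at 118 reads in old naive tissue. Differences between mice, dissection and library could not be told apart from the groups.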

Other observations

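The remaining targets of ATF4 and CHOP that were at least 2-fold apart in the tumor comparison of old mice were chosen after their values were seen. Mthfd2 and Shmt2, mitochondrial enzymes of one-carbon metabolism, were at 1.65 and 10.1 FPKM in old naive and at 17.0 and 46.4 FPKM in old tumor-bearing tissue, 10.3-fold (8.30 to 12.9) and 4.6-fold (4.19 to 5.07) higher. Gdf15, a secreted stress cytokine, had 4 and 110 reads, 18.5-fold higher (7.03 to 69.1). Sesn2 was 3.55-fold higher (3.11 to 4.08), Atf5 2.22-fold (1.95 to 2.54) and the amino acid transporter Slc7a5 2.13-fold (2.0 to 2.28). The cystine transporter Slc7a11 was 2.30-fold lower (2.08 to 2.55) and the lipoprotein receptor Vldlr 2.28-fold lower (2.09 to 2.48).

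Other ATF4 targets were near parity in the same tissue on the deposited scale. The genes named here were likewise chosen after their values were seen. Of 24 measured targets of ATF4 and CHOP 13 were within 2-fold, and 18 were above 0 and 6 below 0 on the log2 scale. The 4 other scalings shifted the log2 ratios of this comparison up by a median of 0.29 to 0.56, so directions near parity depended on the scaling. Asparagine synthetase, Asns, was 1.10-fold lower (1.03 to 1.17), Chac1, which degrades glutathione, 1.06-fold higher (0.858 to 1.30) and Ppp1r15a, the phosphatase subunit that reverses eIF2alpha phosphorylation, 1.2-fold lower (1.02 to 1.42). Eif2ak3, which encodes PERK, was at 6.06 and 7.31 FPKM, 1.21-fold higher (1.09 to 1.34).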
